A study of Drosophila melanogaster with 6 samples.

Results

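The cascade that carries a signal from an activated receptor tyrosine kinase through Ras to MAP kinase was examined in Drosophila eye-antennal discs at the level of its transcripts. The 9 components considered were drk, Sos, csw and dos, which act near the receptor, the kinase genes Raf, Dsor1 and rl, and the scaffold genes ksr and cnk. Members were taken as probe sets whose platform annotation names exactly 1 gene, that gene being 1 of the 9, with Raf also searched as phl. Of the 9 genes, 7 had such a probe set, and each of the 7 had 1, among 14010 probe sets on the array and 10844 genes that have a probe set of their own. Raf and rl have no probe set with a gene name here, so the first and the last kinase of the cascade are not described.

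The samples were whole eye-antennal imaginal discs of wandering larvae of instar 3, the paired epithelia from which the adult eye and antenna form, raised at 25 °C, with 100 discs per sample. The first genotype was GMR Gal4/UAS RasV12, in which a constitutively active Ras is made inside the cell. The second was GMR Gal4/+; UAS sSpi/+, in which cells secrete an active form of Spitz, the main ligand of the EGF receptor. Both genotypes carry GMR-Gal4, a driver that acts in cells behind the morphogenetic furrow, so part of each disc, the antennal portion among it, lies outside the driven region. Each genotype had 3 arrays, which the titles call biological replicates, 6 in all. The sSpi samples carry a description that speaks of RasV12, while their titles, sources and genotypes name sSpi, and arrays were grouped by title. Discs that carry no transgene were not analysed here, so every difference below sets RasV12 against sSpi and neither against a normal disc.

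As background, ligand binding makes the EGF receptor phosphorylate itself, and the adaptor Drk brings the exchange factor Sos to the membrane, where Sos loads Ras with GTP. Ras-GTP engages Raf, Raf phosphorylates the MAP kinase kinase Dsor1, and Dsor1 phosphorylates the MAP kinase encoded by rl. In the eye disc this cascade recruits photoreceptors and cone cells, and several of its genes were first found there, as modifiers of the Sevenless or EGF receptor. RasV12 enters the cascade below Drk and Sos, whereas secreted Spitz enters it above them. The cascade is regulated largely by phosphorylation and by protein contacts, which a transcript array does not measure. In whole discs, fewer cells of a type and less RNA per cell cannot be told apart.

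The values are MAS5 signals, an Affymetrix summary of 1 intensity per probe set on a linear scale, already scaled by the authors to a common level, and the 6 arrays had median signals between 39.5 and 41.4. RasV12 replicate 1 stood apart in 18S rRNA, with a signal of 157 for the transcript's middle part, where the other 5 arrays had 24.7 to 30.4. sSpi replicate 2 stood apart in markers of the salivary gland, whose 7 probe sets summed to a signal of 880 there, against 176 to 238 in RasV12 and 122 to 141 in the other sSpi arrays. Fat body markers summed to 238 in sSpi replicate 1, against 79.2 and 74.5 in the other sSpi arrays and 70.5 to 85.1 in RasV12. Muscle markers summed to 918 in sSpi replicate 3, against 244 and 316 in the other sSpi arrays. In RasV12 the muscle sum was 697 in replicate 1, against 382 and 419 in replicates 2 and 3. Of 12 eye disc markers 11 had a probe set, with summed signals of 3549 to 4286 in RasV12 and 3412 to 4005 in sSpi, and all 11 were tested. Of these, ato and lz, genes of the R8 founder cell and of cone and R7 precursors, were called higher in RasV12 (log2 differences 1.10 and 1.90), and ro and ey lower (-0.61 and -0.48); the calls of ro and ey ended in 6 and 12 of 15 other settings, at limma adjusted p up to 0.12 and 0.21. Of 5 antennal markers none was called in limma, and 2, dan and ss, had an unadjusted p under 0.05, with log2 differences of 0.46 and 0.40. Glial markers summed to 1115 to 1264 in RasV12 and 1622 to 1732 in sSpi, with 1 of 6 called, Gli, a septate junction gene, at -0.68. Without Gli the other 5 summed to 422 to 486 in RasV12 and 458 to 564 in sSpi, which overlap. Including Gli, 4 of the 6 had an unadjusted p under 0.05 in limma, with moody and Mdr65 lower in RasV12 (-0.60 and -0.46) and nrv2 higher (0.58), and these 3 were picked with their values known. No tested marker of hemocytes (5), muscle (3), fat body (2) or salivary gland (4) was called in limma, PPO2, a prophenoloxidase gene of blood cells, alone of these had an unadjusted p under 0.05, and the sum of each of these 4 lists overlapped between genotypes. The hemocyte marker NimC1 lay under the signal filter, at 4.35, 6.54 and 3.04 in RasV12 and 22.1, 17.3 and 25.2 in sSpi, and was called lower in RasV12 in the fit with no filter (log2 difference -0.86, limma adjusted p = 0.026). The part of these markers in the values below was not tested.

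None of the cascade transcripts was called different between the genotypes. Of the 7 probe sets, 6 passed the signal filter and were tested, and 0 of 6 passed an adjusted p of 0.05 in limma (Benjamini-Hochberg over 8380 probe sets), against 219 or 2.61% of all probe sets tested, 1.30% higher and 1.31% lower in RasV12. Sos alone had an unadjusted p under 0.05, 1 of 6, against 15.2% of all probe sets. The 6 differences lay between -0.28 and 0.19 on the log2 scale, 3 above 0 and 3 below, where a difference is RasV12 minus sSpi of log2(signal + 16). Their median was -0.060, and the median of all probe sets tested was -0.0072. The median size regardless of sign was 0.17 for the members and 0.14 for all probe sets tested. The pseudocount of 16 shrinks differences of dim probe sets.

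**Figure D1:**
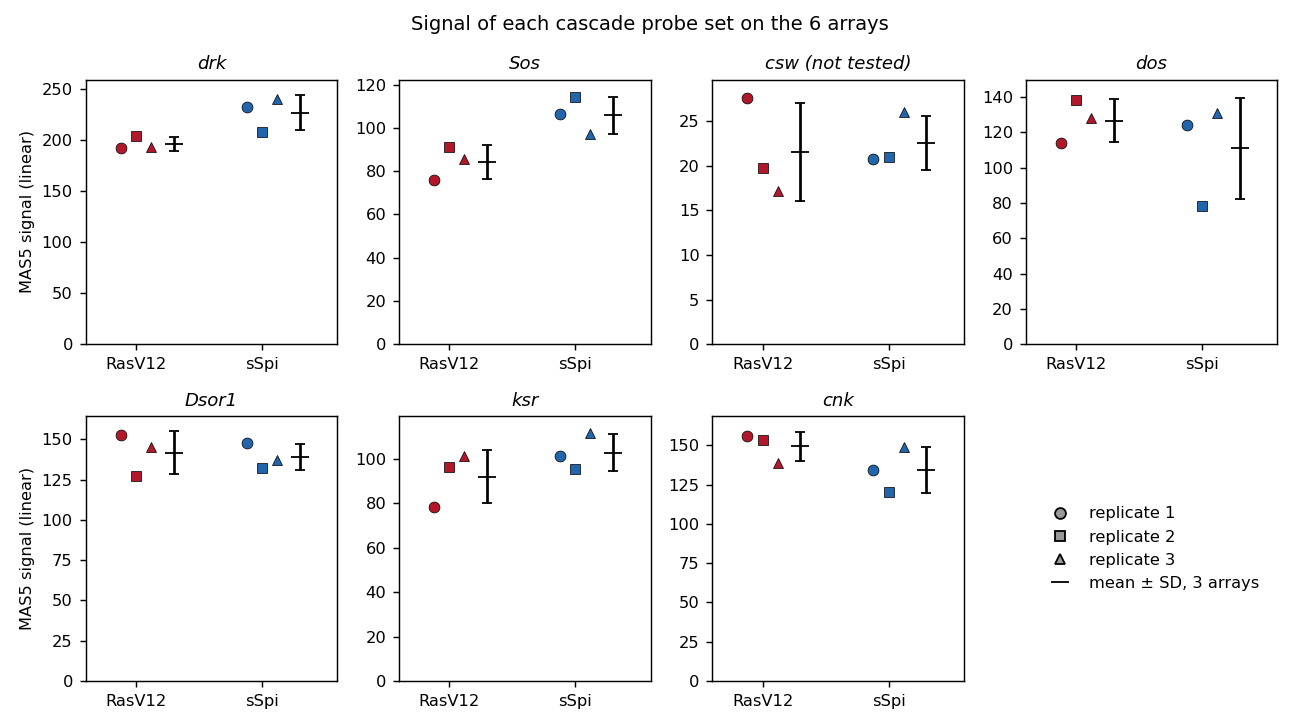
MAS5 signal (linear, vertical axis from 0) of each cascade probe set, with RasV12 arrays in red, sSpi arrays in blue, marker shapes for replicates 1 to 3, and black bars for the mean ± SD of 3 arrays. The groups part in drk and Sos, with every RasV12 value under every sSpi value, and overlap in the other 5. Of all probe sets tested, 21.3% did not overlap, and 11.1% did so with RasV12 lower. The csw panel spans signals of 17.1 to 27.6 and was not tested.

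The first 4 members act between the receptor and Ras. drk encodes an SH2 and SH3 domain adaptor, the fly counterpart of mammalian Grb2, that joins the phosphorylated receptor to Sos. Its signals were 192, 205 and 193 in RasV12, against 232.5, 208 and 241 in sSpi. The 3 RasV12 values lay close together and all under the lowest sSpi value, which was that of replicate 2. The means were 197 ± 6.95 in RasV12 and 227 ± 17.1 in sSpi (SD, n = 3 each), which differed by -0.19 ± 0.10 on the log2 scale (SE, adjusted p = 0.43 in limma).

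Sos encodes the guanine nucleotide exchange factor that Drk recruits and that activates Ras. The Sos probe set gave 75.7, 91.3 and 85.7 in RasV12 and 106, 114 and 97.1 in sSpi. Here too the groups did not overlap, with RasV12 replicate 1 the lowest of the 6 arrays and sSpi replicate 2 the highest. Mean signals were 84.2 ± 7.90 in RasV12 and 106 ± 8.60 in sSpi (SD, n = 3 each). The log2 difference of -0.28 ± 0.12 (SE) was the largest in size of the members and did not pass (limma adjusted p = 0.29), and 20.0% of all probe sets tested differed by more. Of the 6 members tested, 2 had groups that did not overlap, drk and Sos, both lower in RasV12, where 21.3% of all probe sets tested did not overlap and 11.1% did so with RasV12 lower. The exact two-sided permutation p was 0.1 for each of the 2, the smallest that 3 arrays against 3 allow. Every probe set without overlap has this p, so it adds nothing to the lack of overlap.

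csw encodes Corkscrew, an SH2 domain tyrosine phosphatase and the counterpart of mammalian SHP-2, which promotes signalling below receptor tyrosine kinases. Its signals were 27.6, 19.7 and 17.1 in RasV12, against 20.7, 20.95 and 26.0 in sSpi. Both the highest and the lowest of the 6 values were RasV12 arrays, replicates 1 and 3. The mean over all 6 arrays, 22.0, lay just under the lowest mean signal tested, 23.4, so csw is the 1 member with a probe set that was not tested. In a fit with no signal filter its log2 difference was -0.047 ± 0.16 (limma adjusted p = 0.95), where 0.988% of 13966 probe sets were called.

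dos encodes Daughter of sevenless, a docking protein of the Gab family that binds Csw. It measured 114, 138 and 128 in RasV12 and 124, 78.2 and 131 in sSpi. A single array stood apart, sSpi replicate 2, while the other 5 lay between 114 and 138. That array also carried the summed salivary gland signal of 880. The means were 127 ± 12.2 in RasV12 and 111 ± 28.5 in sSpi (SD, n = 3 each), which differed by 0.19 ± 0.17 on the log2 scale (SE, adjusted p = 0.66 in limma). Without sSpi replicate 2 the difference was -0.010, so its sign rested on that array; the part of salivary gland RNA was not tested.

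Of the 3 kinases, Dsor1 alone was measured. It encodes the MAP kinase kinase, the counterpart of mammalian MEK, which activates the MAP kinase encoded by rl. Its signals were 153, 127 and 145 in RasV12, against 148, 132 and 137 in sSpi. Replicate 1 was the highest and replicate 2 the lowest in both genotypes, and the groups overlapped over most of their range. The means were 142 ± 13.3 in RasV12 and 139 ± 7.88 in sSpi (SD, n = 3 each), which differed by 0.023 ± 0.11 on the log2 scale (SE, adjusted p = 0.94 in limma). Its sign turned in 3 of 15 other settings, at -0.029 without RasV12 replicate 1, -0.0094 without sSpi replicate 2 and -0.061 without both.

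The scaffold genes ksr and cnk encode proteins that hold the kinases together, Ksr by binding Raf and Dsor1, and Cnk by binding Raf. The ksr signals were 78.6, 96.5 and 101 in RasV12 and 101, 95.4 and 112 in sSpi. RasV12 replicate 1 was the lowest of the 6, and the other 2 RasV12 arrays lay within the sSpi range. The means were 92.1 ± 11.9 in RasV12 and 103 ± 8.37 in sSpi (SD, n = 3 each), which differed by -0.14 ± 0.13 on the log2 scale (SE, adjusted p = 0.65 in limma) and by -0.048 without RasV12 replicate 1, the array with the high 18S rRNA signal. For cnk the signals were 156, 153 and 139 in RasV12 and 134, 120.0 and 149 in sSpi. RasV12 replicates 1 and 2 lay above all 3 sSpi arrays, and replicate 3 lay among them. The cnk means were 149 ± 9.10 in RasV12 and 134 ± 14.5 in sSpi (SD, n = 3 each), which differed by 0.14 ± 0.11 on the log2 scale (SE, adjusted p = 0.62 in limma) and by 0.070 without sSpi replicate 2.

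A p above the threshold does not show that 2 genotypes are alike, so the 95% intervals of the fit, unadjusted for the number of genes, were read for what size of difference they leave. On the (signal + 16) scale the ratio of RasV12 to sSpi lay between 0.747 and 1.03 for drk, between 0.684 and 0.987 for Sos and between 0.875 and 1.49 for dos. It lay between 0.855 and 1.21 for Dsor1, between 0.746 and 1.10 for ksr and between 0.923 and 1.32 for cnk. Changes of 1.49-fold were thus the largest that any of the 6 intervals held, in dos, and the interval of Sos was the single one of the 6 that did not hold 1. The ratios are of whole discs, part of which lies outside the driven region, so they do not bound a change within the driven cells. The 219 probe sets called in the whole table had a median size of 0.79 on the log2 scale, or 1.73-fold, and the smallest was 0.43. None of the 6 member intervals reached 0.79, and 2, those of Sos and dos, reached past 0.43. Both sizes belong to probe sets picked for passing the threshold in these same data, so they serve as a scale and not as a test.

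**Figure D2:**
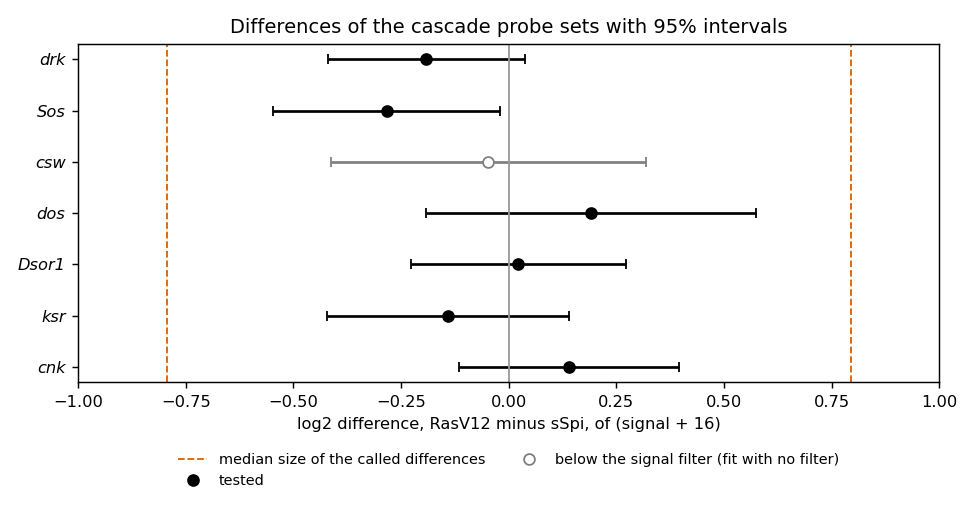
Log2 difference of (signal + 16), RasV12 minus sSpi (horizontal axis), of the 7 cascade probe sets, with bars for the unadjusted 95% interval of the limma fit; csw, open and grey, comes from the fit with no signal filter. The 6 tested differences lie between -0.28 and 0.19, and no bar reaches the dashed lines at the median size of the 219 called differences, 0.79.

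The spread of the members between replicates was read beside that of all probe sets tested. The within-genotype SD of log2(signal + 16) lay between 0.080 and 0.26 for the 6 tested members, with a median of 0.11, against a median of 0.16 for all probe sets tested, and 5 of the 6 were under the latter. The exception was dos, through sSpi replicate 2. Sos, the dimmest of the 6, had a mean signal of 95.1, and the upper 40% of probe sets begins at 66.7. Spread among probe sets of like signal was not computed, so the low spread is not shown to be a trait of the members. Averaged over the 6 members, the log2 deviation of an array from each gene's own mean was -0.074, 0.017 and -0.0084 in RasV12 replicates 1 to 3 and 0.067, -0.098 and 0.096 in sSpi replicates 1 to 3. The lowest of the 6 arrays was RasV12 replicate 1 for drk, Sos and ksr, RasV12 replicate 2 for Dsor1, and sSpi replicate 2 for cnk and dos. The 2 arrays that stood apart in 18S rRNA or salivary gland markers held the lowest value of 5 of the 6 members. They also held the highest value of 3, RasV12 replicate 1 for Dsor1 and cnk and sSpi replicate 2 for Sos. How often these arrays are lowest or highest over all probe sets was not computed, so the counts are a description and not a trait of the members. The part of 18S rRNA or of salivary gland, fat body or muscle RNA was not tested.

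With RasV12 replicate 1 and sSpi replicate 2 left out together, no member was called. The differences were -0.23 for drk, -0.17 for Sos, -0.094 for ksr, 0.042 for cnk, 0.056 for dos and -0.061 for Dsor1. That fit kept sSpi replicates 1 and 3, the arrays with the highest fat body and muscle sums. Over the 6 settings that each left out 1 array, drk stayed between -0.25 and -0.15, Sos between -0.34 and -0.22, ksr between -0.20 and -0.048 and cnk between 0.070 and 0.21. dos ranged from -0.010 to 0.31 and Dsor1 from -0.029 to 0.091. The csw difference, computed without a test, ranged from -0.16 to 0.037 and was above 0 without RasV12 replicate 3 or without sSpi replicate 3.

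**Figure D3:**
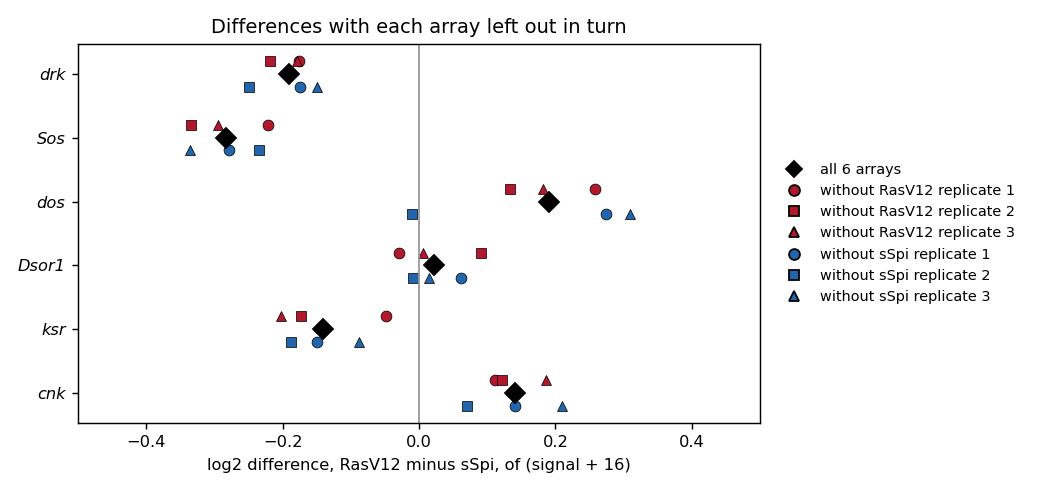
Log2 difference of (signal + 16), RasV12 minus sSpi (horizontal axis), of the 6 tested members with all 6 arrays (black diamonds) and with each array left out in turn (red for RasV12, blue for sSpi, shapes for replicates 1 to 3). drk, Sos and ksr stay below 0 and cnk above 0, while dos lies at -0.010 without sSpi replicate 2 and Dsor1 lies on both sides of 0.

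Other genes around the cascade were read from 5 lists, each gene by its brightest probe set. Together the lists held 38 tested genes, of which 8 or 21.1% had an unadjusted p under 0.05, against 15.2% of all probe sets tested, and 13 or 34.2% had genotypes that did not overlap, against 21.3%. A single gene of the 38 was called, 2.63%, near the 2.61% of all probe sets tested. It was Egfr, which encodes the EGF receptor itself, and it was higher in RasV12. The Egfr signals were 406, 337 and 325 in RasV12, against 197, 231 and 206 in sSpi. Every RasV12 array lay above every sSpi array. The log2 difference was 0.71 ± 0.12 (SE, limma adjusted p = 0.014, n = 3 each). This estimate lay beyond the 95% interval of each of the 6 tested members, though its own interval, 0.45 to 0.97, overlapped that of dos. The call ended without sSpi replicate 1 (limma adjusted p = 0.073) or sSpi replicate 3 (0.054). The other Egfr probe set gave 247, 287 and 267 in RasV12 and 184, 203 and 241 in sSpi, again without overlap. Its smaller difference of 0.33 ± 0.12 was not called (limma adjusted p = 0.22) and lay inside the intervals of dos and cnk. Of 7 receptor tyrosine kinase genes tested, 1 was called higher and 0 lower, and the list median was 0.13. The FGF receptor gene htl and the gene otk were next, at 0.69 ± 0.16 and 0.62 ± 0.15 (limma adjusted p = 0.055 and 0.079); both were picked with their values known, and htl passed in 2 of 14 other settings. sev, the receptor of the R7 precursor, differed by -0.10 ± 0.17.

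The list of Ras family GTPases and their regulators held 11 entries, of which RasGEF1 matched no gene. Of these, 5 were measured, and 0 of 5 were called in limma, with 0 at an unadjusted p under 0.05. The median difference was -0.15. Rgl, which encodes an exchange factor for Ral, had a signal of 90.0 ± 19.5 in RasV12, against 112 ± 9.06 in sSpi (SD, n = 3 each). C3G, an exchange factor gene whose product acts on Rap1, measured 48.7 ± 15.8 in RasV12 and 64.1 ± 10.5 in sSpi. These 2 had the smallest p of the list, with limma adjusted p of 0.43 and 0.46. The C3G probe set shown differed by -0.33 ± 0.19 and a second one by -0.14 ± 0.16 (log2, SE). For RapGAP1, picked with its values known, the brightest probe set differed by -0.11 ± 0.12. Another tested RapGAP1 probe set went the other way, at 0.28 ± 0.15, and neither was called. The Ras85D gene, from which the RasV12 transgene derives, has no probe set with a gene name here, so the transgene was not checked through it.

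Among 11 genes tested for phosphatases, partners and carriers of the cascade kinases, 0 were called in limma and 3 had an unadjusted p under 0.05. Cdc37, a co-chaperone gene for protein kinases, was at 372 ± 21.5 in RasV12, against 460.2 ± 28.6 in sSpi (SD, n = 3 each), which differed by -0.29 ± 0.10 on the log2 scale (SE, adjusted p = 0.18 in limma). 14-3-3zeta, whose product binds Raf, measured 2031 ± 181 in RasV12 and 2416 ± 198 in sSpi, which differed by -0.25 ± 0.10 on the log2 scale (SE, adjusted p = 0.29 in limma). In both genes all 3 RasV12 values lay below all 3 sSpi values. The third was wdb, which encodes a regulatory subunit of protein phosphatase 2A, with signals of 63.4, 76.9 and 65.2 in RasV12 and 45.4, 43.9 and 63.8 in sSpi. It ran the other way, at 0.34 ± 0.15 (log2, SE, limma adjusted p = 0.31), with overlapping groups, and was picked with its values known. Mkp3, a phosphatase gene that acts on the MAP kinase, was picked with its values known. Its brightest probe set gave 114, 169.0 and 169.6 in RasV12 and 178, 252 and 159 in sSpi, with overlapping groups. The difference was -0.34 ± 0.19 (log2, SE) and was not called (limma adjusted p = 0.44). A second Mkp3 probe set gave 148, 122 and 118.5 in RasV12 and 151, 160 and 193 in sSpi, without overlap. It differed by -0.34 ± 0.13 and was not called either (limma adjusted p = 0.25). Of the 11 differences 8 lay below 0, and their median was -0.13.

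The parallel JNK and p38 cascades use kinases related to those of the Ras cascade. Of 10 of their kinase genes tested, 0 were called in limma, 2 had an unadjusted p under 0.05, and the median was -0.23. wnd, a MAP kinase kinase kinase gene, measured 164 ± 13.3 in RasV12 and 201 ± 9.15 in sSpi, and Mkk4, a MAP kinase kinase gene, was at 172 ± 27.8 in RasV12, against 129.5 ± 22.6 in sSpi (SD, n = 3 each; limma adjusted p = 0.25 and 0.28). The genotypes did not overlap in 6 of the 10, in either direction, against 21.3% of all probe sets tested. The last list was the exon junction complex, on which correct splicing of rl transcripts depends in Drosophila. Of 5 tested, 0 were called in limma, 0 had an unadjusted p under 0.05, and the differences lay between -0.17 and 0.13. CG7483, the eIF4AIII gene, and Acn had the smallest p, with log2 differences of -0.17 ± 0.093 and 0.13 ± 0.11 (SE, limma adjusted p = 0.45 and 0.60, n = 3 each).

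**Figure D4:**
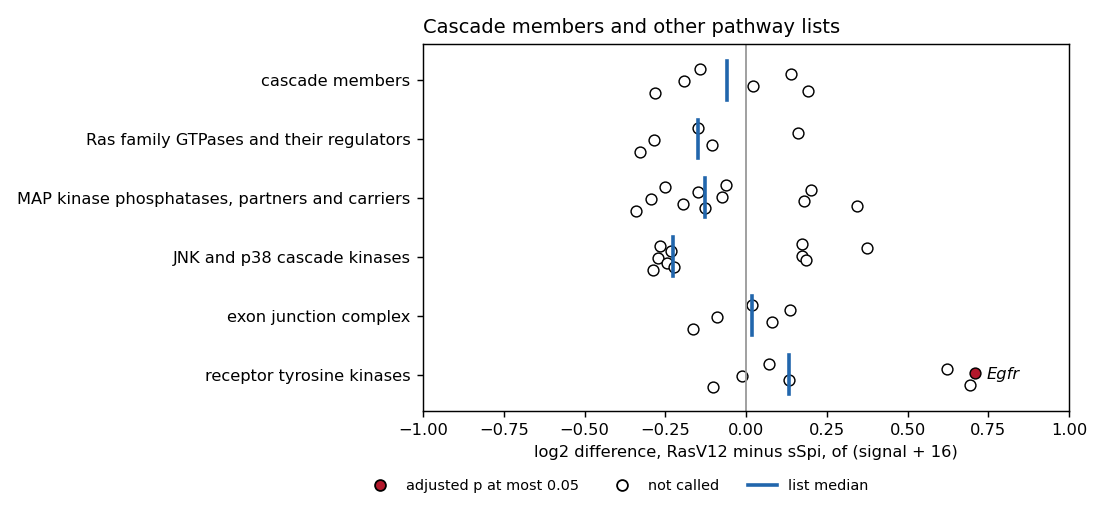
Log2 difference of (signal + 16), RasV12 minus sSpi (horizontal axis), of each tested gene in the cascade and in 5 other lists, with the list median as a blue line and called genes in red. Egfr, at 0.71, is the single called gene; the 6 cascade members lie between -0.28 and 0.19.

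The member with the smallest p was Sos, and the named probe sets whose profile over the 6 arrays was most like it were those of wnd, Mthfs and Lsd-1. The root mean square distance between centred log2(signal + 16) values was 0.029, 0.035 and 0.041 over 6 arrays of 2 genotypes. Each of the 3 was lowest in RasV12 replicate 1 and highest in sSpi replicate 2, as Sos was, and none was called (limma adjusted p = 0.25, 0.32 and 0.48). The wnd signals were 149, 174 and 169 in RasV12, against 199.5, 211 and 193 in sSpi. With 6 arrays and 8380 probe sets, close profiles are found for many genes, and the likeness is given as a description.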

How the data were processed

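RNA of 6 samples was hybridised to single-colour Affymetrix arrays, from 5 ug of total RNA each per the labels' protocols. The deposited values are intensities on a linear scale, made by the authors with MAS5 per the submitters' processing notes, in a version not given here. Each array's mean was 100.01 after trimming 2% from each end. Of 13966 probe sets without 44 controls, 12443 had 1 gene symbol. For 12394 of these it was updated through gene identifiers to the table of assembly Release 6 plus ISO1 MT, and the rest kept the annotation's symbol. The 60% with the highest mean signal, 8380 probe sets, were tested on log2(signal + 16) with lmFit and eBayes with a trend (limma 3.58.1, R 4.3.3); p-values are two-sided and were adjusted by Benjamini-Hochberg. The fit was run on simulated data with independent noise on each value, so effects shared over a whole array were not covered. The members and lists, and the rule for named genes (all members, up to 4 called genes of a list or the 2 with the smallest p, and the 3 profiles closest to the leading member), were chosen with earlier results of these data known. Marker sums add signals of all named probe sets, 1 per gene. Same-numbered arrays did not deviate together (correlations of -0.14 to -0.04), and were not treated as pairs. Alternatives were other pseudocounts, filters and scalings, eBayes without the trend, the replicate block and arrays left out. The number of arrays limits the precision. Figures used matplotlib 3.10.9 under Python 3.11.15.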

Additional observations from a re-analysis of the deposited data

How the results depend on the processing

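The count of 0 called members held in all 15 other settings. These changed the pseudocount (1 or 64), the signal filter (none, or the upper 40%), the scaling (quantile or median) or the eBayes trend. The rest added the replicate block or left out each array, or RasV12 replicate 1 and sSpi replicate 2 together. The limma adjusted p of Sos lay between 0.27 and 0.59 over these settings and that of drk between 0.31 and 0.63. Of the 6 tested members, drk, Sos, ksr and cnk kept their sign in all 15 settings. The sign turned for Dsor1, at -0.061 without both RasV12 replicate 1 and sSpi replicate 2 and between -0.029 and 0.091 with 1 array left out, and for dos, between -0.010 and 0.31 with 1 array left out. The count over all probe sets moved from the 219 called (2.61%) to 138 (0.988%) with no signal filter. It moved to between 89 and 367 with 1 array left out, the extremes being without sSpi replicate 2 and without RasV12 replicate 1. At such low shares 6 probe sets mostly hold no call, so the 0 is not a trait of the members. Genes called in the 5 pathway lists numbered 2 in place of 1 with a pseudocount of 64 and 2 without the trend, htl being the second, and 0 to 1 with 1 array left out, 0 without sSpi replicate 1 or 3. The cause of these moves was not tested. With the replicate number as a block, 159 probe sets and 0 members were called; 0 of the 3 RasV12 arrays deviated most like the sSpi array of their own number. Since each member had 1 probe set, no comparison between probe sets of a member was run; with every probe set of the list genes counted, 1 was called. The csw signals lie close to the filter, and the pseudocount of 16 shrinks the difference of so dim a probe set. It was -0.086 with a pseudocount of 1 and -0.047 with 16.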
